A study of Mus musculus with 2 samples.

Results

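Aminoacyl-tRNA synthetases are the enzymes that join each amino acid to its transfer RNA, and the transcription factor ATF4 drives many genes that supply and charge amino acids when cells are under stress. The 47 genes described here are 20 cytosolic synthetases, 16 mitochondrial synthetases and 11 genes under the control of ATF4 or, for Atf4 itself, encoding it. They were taken by gene symbol, and all 47 were found among the 21896 genes of the expression tables. RNA was taken from the embryonic mouse cortex (strain C57/BL6, E13.5), from the ventricular zone and the subventricular zone, VZ-SVZ, which hold the neural progenitors. One library was from an Rcor2fl/fl embryo sample, whose Rcor2 alleles carry loxP sites, and 1 was from an Rcor2cko sample, in which NesCre, a Cre recombinase active in neural progenitors of the whole nervous system, was used to delete the floxed Rcor2 exons. Both came from crosses of Rcor2fl/+NesCre parents, and the study names NesCre only for the Rcor2cko embryos. Loss of Rcor2 and presence of the recombinase therefore cannot be told apart. The number of embryos behind each library was not given in the sources used here.

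In background, cells keep separate sets of these enzymes, since proteins are made both in the cytosol and in mitochondria. Both sets are encoded in the nucleus, and Gars and Kars serve both compartments. When amino acids run short, uncharged transfer RNA activates the kinase GCN2, which phosphorylates the initiation factor eIF2. General protein synthesis then slows while Atf4 messenger RNA is translated better, and ATF4 protein switches on amino acid transporters, amino acid synthesis enzymes and a number of cytosolic synthetases. Misfolded protein in the endoplasmic reticulum feeds the same pathway through the kinase PERK. The level of Atf4 messenger RNA is therefore an incomplete guide to ATF4 activity, and the levels of its target genes are usually read beside it. Neural progenitors divide fast and make much protein, which puts steady demand on these enzymes.

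The values were FPKM, fragments per kilobase of transcript scaled to the total of mapped fragments, and differences are the log2 ratio of FPKM plus 0.1, Rcor2cko over Rcor2fl/fl. With 1 library per genotype, no test of the genotype was possible and no p-value is given. Fragment numbers recovered from the FPKM of 37 members gave exact (Clopper-Pearson) 95% intervals for the ratio of the libraries, which cover counting error only and not the variation between embryos. The libraries were scaled to 1.88e+07 and 2.55e+07 fragments. Rcor2 itself had 90.6 and 55.7 FPKM in the Rcor2fl/fl and Rcor2cko libraries, a log2 difference of −0.70. By the study's description the loxP sites flank only the first several exons, so fragments of the remaining exons still count towards this value, and it does not measure the deleted part. The Y-linked gene Eif2s3y had 0 and 19.8 FPKM, so the genotype cannot be told apart from the sex of the embryos. All 7 markers of radial glia, the progenitors of the ventricular zone, reached 1 FPKM in both libraries, with medians of 40.2 and 44.2 FPKM. All 5 markers of cortical neurons did so too, with medians of 172 and 175 FPKM, so the levels below are not those of progenitors alone. Ttr, a choroid plexus marker, had 0 and 57.8 FPKM. All 5 choroid plexus markers, all 5 of the ventral telencephalon, all 4 of microglia and all 4 of endothelium were higher in the Rcor2cko library. Among all genes that reached 1 FPKM, 42.4% were higher. For the choroid plexus marker Kl the direction rested on 0 and 1 fragments. The 2 erythroid markers that reached 1 FPKM were lower. The summed level of the microglial markers was 6.97 and 10.4 FPKM, and the choroid plexus markers other than Ttr stayed under 1 FPKM in both. The part of these other cells in the differences below was not tested.

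Of the 47 members, 45 reached 1 FPKM in at least 1 library, and Trib3 and Slc7a11 stayed below it in both. Of the 45 genes, 37 were lower and 8 were higher in the Rcor2cko library, with a median log2 difference of −0.08. Among all 11777 genes that reached 1 FPKM, 57.6% were lower, 42.4% were higher and the median was −0.03. Most members moved little, since 40 of the 45 lay within 1.2-fold. The 4 that were more than 1.2-fold lower were Mars, Vars, Lars2 and Shmt2, beside 9.98% of all genes. Only Chac1 was more than 1.2-fold higher, beside 10.4% of all genes, and it reached 1 FPKM in the Rcor2cko library alone. Past 1.5-fold, the fold change that the study used, 1 member was lower (Lars2) and 1 was higher (Chac1), beside 1.76% and 3.79% of all genes.

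**Figure D1:**
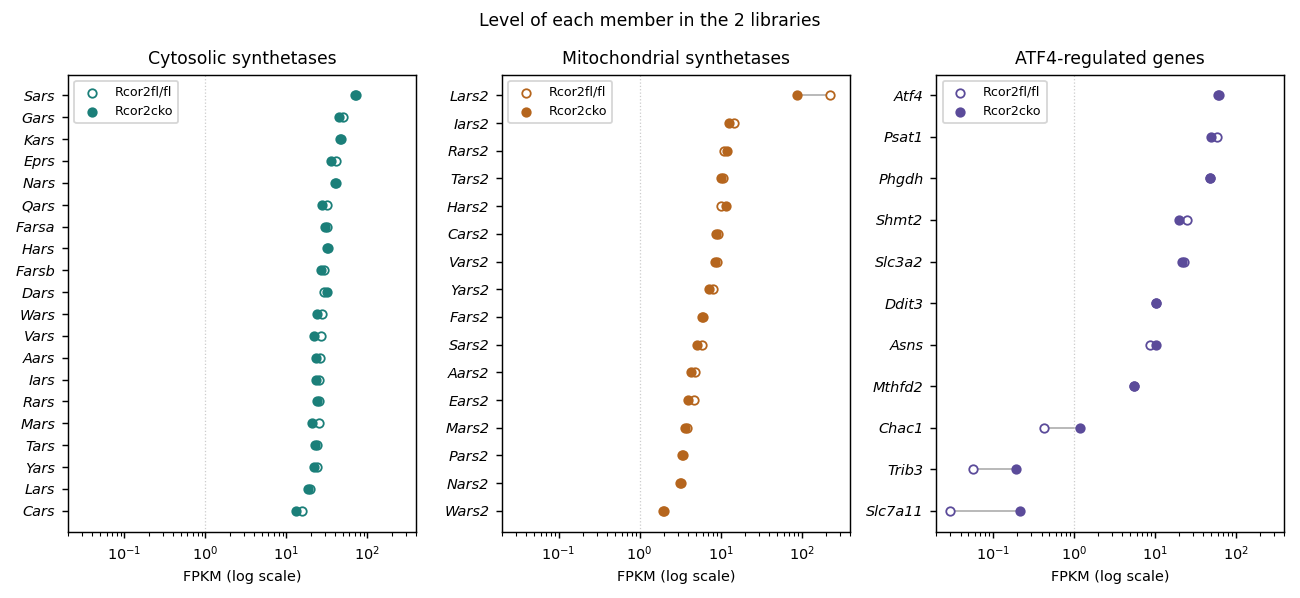
Level of each of the 47 members in FPKM on a log axis, with the Rcor2fl/fl library as open points and the Rcor2cko library as filled points. Cytosolic synthetases all lie above 10 FPKM, most mitochondrial synthetases lie below it, and Lars2 (228 and 87.4 FPKM) stands far from the other mitochondrial enzymes.

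Cytosolic synthetases were expressed at like levels, with medians of 28.2 FPKM (Rcor2fl/fl) and 25.2 FPKM (Rcor2cko). All 20 were above 10 FPKM in both. Sars, the seryl-tRNA synthetase, was highest with 70.9 and 71.4 FPKM. Next were Gars, for glycine, with 49.7 and 44.9 FPKM and Kars, for lysine, with 47.7 and 46.1 FPKM, in the reverse order in the Rcor2cko library. Cars, the cysteinyl-tRNA synthetase, was lowest in both with 15.53 and 13.3 FPKM. The ends of this order were therefore held by the same enzymes in both genotypes.

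Within this set, 16 genes were lower and 4 were higher in the Rcor2cko library, and the median log2 difference was −0.12. Genes of at least 10 FPKM in both libraries make a closer background, and 61.9% of those 5855 genes were lower, with a median of −0.04. Vars, the valyl-tRNA synthetase, had the largest decline in the set, from 26.9 to 22.1 FPKM, a log2 difference of −0.28. Its 2041 and 2267 fragments gave an interval of −0.37 to −0.19. Mars, the methionyl-tRNA synthetase, followed with 25.1 and 20.9 FPKM, a log2 difference of −0.27. With only its larger Rcor2fl/fl transcript row set against the whole-gene Rcor2cko value, the difference was −0.04. Such a setting can raise a difference but not lower it, since the Rcor2cko library has no transcript rows. Vars and Mars were past the 1.2-fold mark by a small margin, and neither had FPKM intervals that separated the libraries. With the libraries scaled to equal medians, 2 of all members in place of 4 were past 1.2-fold lower.

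Several further enzymes differed between these libraries by more than counting error while staying within 1.2-fold. The FPKM intervals of the 2 libraries, which are wider than the counting intervals, overlapped for each of them. Eprs, which charges both glutamate and proline, had 41.0 and 35.4 FPKM, and its interval ran from −0.28 to −0.15. Cars had an interval of −0.37 to −0.08, and Aars, the alanyl-tRNA synthetase (25.6 and 22.9 FPKM), one of −0.24 to −0.08. Gars, Farsb (29.4 and 26.4 FPKM), a subunit of the phenylalanyl-tRNA synthetase, and Iars (25.6 and 23.4 FPKM), the isoleucyl-tRNA synthetase, also had intervals below 0. In all, 7 of the 14 cytosolic synthetases with recovered fragments had an interval below 0 and 0 had one above it. Among the 4161 genes of at least 10 FPKM with recovered fragments, 30.2% were below 0 and 11.8% were above.

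For 7 enzymes the interval held 0. They were Farsa (31.8 and 30.04 FPKM), the other subunit of the phenylalanyl-tRNA synthetase, and Hars for histidine (31.8 and 32.3 FPKM). Lars for leucine had 19.5 and 18.2 FPKM, Rars for arginine had 25.3 and 23.7 FPKM, and Tars for threonine had 23.8 and 22.8 FPKM. Yars for tyrosine had 23.5 and 21.9 FPKM, and Sars completed the group. The differences of these enzymes, between −0.10 and 0.02 on the log2 scale, were not resolved at this depth. The phenylalanyl-tRNA synthetase is built from both Farsa and Farsb, and the intervals of these subunits, −0.21 to 0.04 and −0.27 to −0.04, overlapped.

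For the remaining enzymes the table held several transcript rows, which were summed and gave no fragment number. Dars, the aspartyl-tRNA synthetase, had the largest increase of the set, with 28.9 and 31.9 FPKM and a log2 difference of 0.15. Nars for asparagine had 39.7 and 41.3 FPKM, a difference of 0.06, and the difference of Kars was −0.05. The rows of Nars held 61.7% and 38.3% of its Rcor2fl/fl level. With the larger row alone set against the whole-gene Rcor2cko value, its log2 difference would be 0.75, but this setting leaves out only control transcripts. Qars for glutamine (32.1 and 27.6 FPKM) and Wars for tryptophan (27.6 and 24.0 FPKM) were lower, with log2 differences of −0.22 and −0.20. Thus Dars, Nars, Hars and Sars were the 4 members of the set that were higher, and none of them exceeded 1.2-fold.

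Synthetases fall into 2 classes with unrelated catalytic folds, and the classes were set side by side. Eprs, whose enzyme charges both glutamate and proline, was counted in class I only. All 10 class I genes were lower in the Rcor2cko library, with a median log2 difference of −0.20. Of the 10 class II genes, 6 were lower and 4 were higher, with a median of −0.06. Among all genes of at least 10 FPKM in both libraries, 61.9% were lower and the median was −0.04. This difference between the classes was seen in 1 pair of libraries and was not tested. The 8 genes whose enzymes sit in the multisynthetase complex, a large particle of cytosolic synthetases, had a median of −0.11, and the 12 others had a median of −0.12. Its 3 non-catalytic scaffold genes, Aimp1, Aimp2 and Eef1e1, had a median of −0.03. The 12 cytosolic synthetases linked to ATF4 had a median of −0.14 with 10 lower, and the 8 others had a median of −0.09 with 6 lower.

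**Figure D2:**
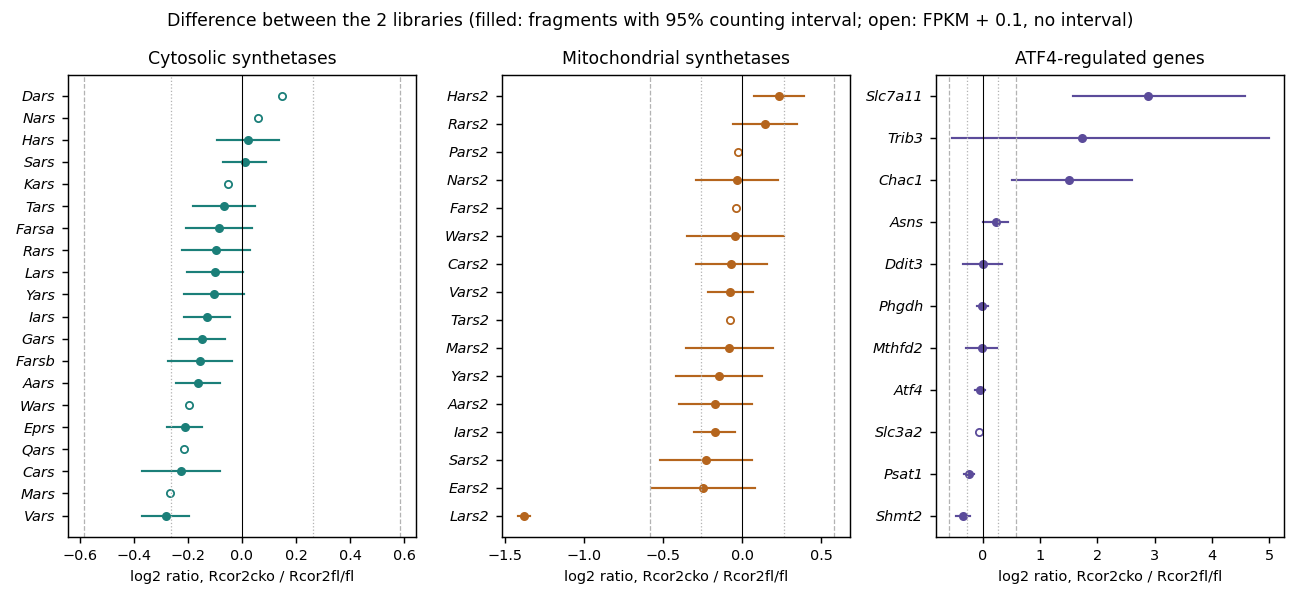
Log2 ratio of the Rcor2cko library over the Rcor2fl/fl library for each member, from fragments with 95% counting intervals (filled) or from FPKM plus 0.1 (open, no interval), with dotted and dashed lines at 1.2-fold and 1.5-fold. Most members lie between the dotted lines, and the horizontal scales differ between panels.

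Mitochondrial synthetases were expressed at lower levels than the cytosolic ones, with medians of 7.02 and 6.56 FPKM. The ratio of the cytosolic to the mitochondrial median was 4.02 with the Rcor2fl/fl values and 3.85 with the Rcor2cko values. Each mitochondrial enzyme was also set beside a cytosolic gene for the same amino acid. Eprs served for both Ears2 and Pars2, and Farsa without Farsb served for Fars2. In 15 of 16 such pairs the cytosolic gene was higher, in both libraries, with median ratios of 4.20 and 4.06. Wars over Wars2 was the widest pair of the Rcor2fl/fl library, with ratios of 13.8 and 12.4, and Cars over Cars2 the narrowest of those 15, with 1.68 and 1.51. The exception was the leucine pair, where Lars was at 0.0857 and 0.209 times the level of Lars2.

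Lars2, the mitochondrial leucyl-tRNA synthetase, had 228 and 87.4 FPKM in the Rcor2fl/fl and Rcor2cko libraries. It was thus 2.60-fold lower, a log2 difference of −1.38. The 15823 and 8194 fragments gave an interval of −1.42 to −1.34, and the FPKM intervals of the table, 187 to 268 and 76.1 to 98.7, did not overlap. Non-overlapping FPKM intervals in the lower direction were found for 1.21% of all genes. In the Rcor2fl/fl library the next mitochondrial synthetase, Iars2, was at 14.5 FPKM, so Lars2 alone made up most of the summed level of the set, 334 FPKM. That sum was 190 FPKM in the Rcor2cko library. With Lars2 left out, the sums were 106 and 103 FPKM, and the median log2 difference of the set stayed at −0.07. The separation of the cytosolic from the mitochondrial sum was 1.92-fold and 3.16-fold with Lars2, and 6.02-fold and 5.84-fold without it.

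The Lars2 transcript carries sequence that other loci share, which bears on how its level is read. The gene lies at chr9:123276058-123371782 on the plus strand of NCBIM37 (mm9), and its annotated transcript has 3881 nt with a 3′ untranslated region that starts at nt 2896. Between nt 3017 and 3400 lies a stretch of 384 nt or 9.89% of the transcript. In it, 380 nt were covered by runs of 31 nt found elsewhere in the genome, in up to 7 copies. Single letters outside any such run split the stretch into parts of 46 to 112 nt, and runs of 31 nt across those letters were not found elsewhere. A window of 30 nt at its end is shown because it holds, in capitals, the letters of the sarcin-ricin loop, a conserved element of large ribosomal RNA.
Lars2 nt 3377 to 3406: atcctgctcAGTACGAGAGGAaccgcagct
Fragments from such copies cannot be told apart from Lars2 fragments in a gene-level value. The level of ribosomal RNA and the coverage along the gene were not analysed here, and their part in the Lars2 difference was not tested.

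The other 15 mitochondrial synthetases lay within 1.2-fold, 13 of them lower. Hars2, for histidine, had the largest increase among them, with 10.05 and 11.8 FPKM, a log2 difference of 0.23 and an interval of 0.08 to 0.39. Rars2, for arginine, had 10.98 and 12.1 FPKM, with an interval of −0.06 to 0.34. Iars2, for isoleucine, had 14.5 and 12.8 FPKM, with an interval of −0.30 to −0.05. Hars2 and Iars2 were thus the only genes of these 15 with an interval that left out 0, among the 12 that had one. Of the 8765 genes at 1 FPKM or more with recovered fragments, 22.9% were below 0 and 13.9% above. Both overlap exons of a neighbour on the opposite strand, Hars2 with Hars and Iars2 with Rab3gap2 (2018 nt). Opposite-strand exons also overlap Vars (304 nt), Nars2 (284 nt), Farsb (265 nt), Cars (211 nt) and, with each other, Mars and Ddit3. Whether counting used the strand was not given in the sources used here.

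Ears2, which charges mitochondrial glutamate transfer RNA, had 4.75 and 4.01 FPKM with a log2 difference of −0.24, and its 148 and 168 fragments gave a wide interval of −0.57 to 0.08. Sars2 (5.95 and 5.08 FPKM), Aars2 (4.81 and 4.28 FPKM) and Yars2 (7.98 and 7.20 FPKM) had log2 differences of −0.22, −0.17 and −0.15. These declines were no larger than counting error. Tars2 (10.7 and 10.1 FPKM), Cars2 (9.23 and 8.81 FPKM), Vars2 (8.98 and 8.53 FPKM) and Mars2 (3.87 and 3.66 FPKM) were closer to the control. So were Fars2 (6.07 and 5.91 FPKM), Pars2 (3.43 and 3.38 FPKM), Nars2 (3.22 and 3.15 FPKM) and Wars2 (1.999 and 1.94 FPKM). The letters in these names give the amino acid that each enzyme charges, phenylalanine for Fars2 and proline for Pars2.

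**Figure D3:**
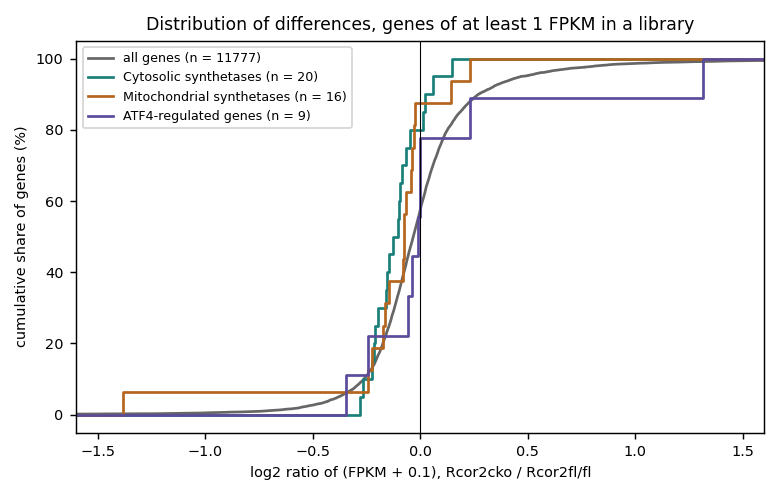
Cumulative share of genes (percent) against the log2 ratio of FPKM plus 0.1, for all 11777 genes that reached 1 FPKM and for the 20, 16 and 9 members of each set that did. The cytosolic curve lies left of the curve of all genes over most of its range, while 1 mitochondrial gene (Lars2, −1.38) and 1 ATF4-regulated gene (Chac1, 1.31) lie far from the rest.

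ATF4-regulated genes did not move in 1 direction. Of the 9 that reached 1 FPKM, 7 were lower and 2 were higher, and their median log2 difference was −0.01. With the libraries scaled to equal medians, Ddit3 (0.02), Phgdh (0.02) and Mthfd2 (0.01) turned to the higher side and the median of the set was 0.01, so the direction of this set depended on the scaling. Atf4 itself had 62.7 and 61.0 FPKM, a log2 difference of −0.04, and its 1809 and 2368 fragments gave an interval of −0.13 to 0.05. Ddit3, the pro-apoptotic factor CHOP that ATF4 induces under lasting stress, had 10.4 FPKM in both libraries, with a wider interval of −0.33 to 0.34. The level of the regulator and of this target thus differed by less than counting error.

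Shmt2 and Psat1 had the largest declines of the ATF4-regulated genes. Shmt2, the mitochondrial enzyme that passes a carbon unit from serine to folate, had 25.3 and 19.9 FPKM and was 1.27-fold lower, with an interval of −0.47 to −0.22. Psat1, an aminotransferase of serine synthesis, had 58.1 and 49.1 FPKM, with an interval of −0.33 to −0.16. Phgdh, the first enzyme of serine synthesis, had 48.1 and 48.0 FPKM, and Mthfd2, a mitochondrial folate enzyme, had 5.57 and 5.52 FPKM. Shmt2 and Psat1 were therefore lower by more than counting error while Phgdh and Mthfd2 were not. The FPKM intervals of Shmt2 and of Psat1 overlapped between the libraries. Of the 8 ATF4-regulated genes at 1 FPKM or more with recovered fragments, 2 had an interval below 0 and 2 above. Among all such genes the shares were 22.9% and 13.9%. Runs of 31 nt shared with other loci covered 93.6% of the Phgdh transcript, 24.8% of Psat1 and 15.53% of Shmt2, and among the synthetases 43.5% of Iars and 17.8% of Kars. The values of these 5 genes are uncertain where copies could take or lend fragments.

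Asns, the asparagine synthetase, had 8.79 and 10.3 FPKM, a log2 difference of 0.23, and its 287 and 454 fragments gave an interval of 0.02 to 0.45. Slc3a2, the heavy chain of several amino acid transporters, had 22.8 and 21.98 FPKM. Its partner Slc7a11, the light chain of the cystine and glutamate exchanger, was barely detected, with 0.0294 and 0.217 FPKM. Its 5 and 50 fragments nevertheless gave a log2 ratio of 2.89 with an interval of 1.57 to 4.57. Chac1, which breaks down glutathione and is among the most responsive ATF4 targets, had 0.425 and 1.205 FPKM from 11 and 42 fragments, a log2 difference of 1.31. The fragment log2 ratio of Chac1 had an interval of 0.52 to 2.61, and its FPKM intervals did not overlap, as in the higher direction for 2.26% of all genes. Trib3, a pseudokinase that feeds back on ATF4, had 0.0572 and 0.191 FPKM from 2 and 9 fragments, and its interval of −0.53 to 4.99 held 0. The 3 genes with the largest ratios were thus the 3 lowest in level, and 3 fragments at a transcript length of 2000 nt correspond to 0.0882 FPKM (Rcor2fl/fl) and 0.0654 FPKM (Rcor2cko). In Slc7a11, 7.67% of the transcript was found elsewhere in the genome, most of it after the stop codon.

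**Figure D4:**
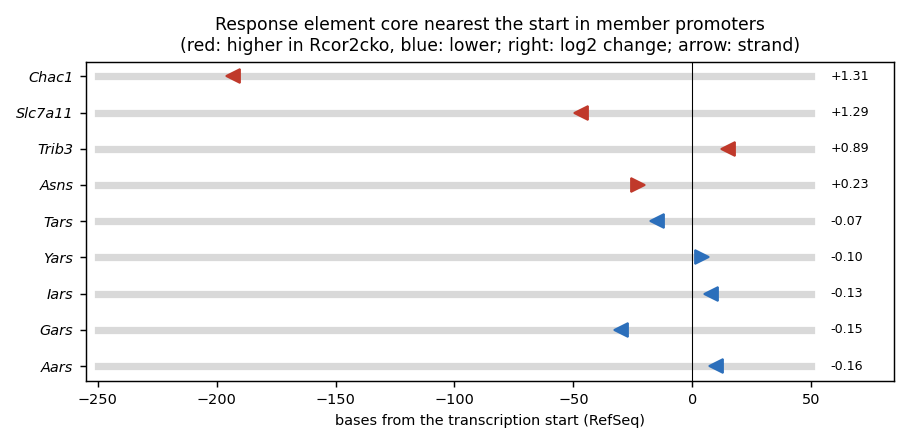
The match to TGATGNAA nearest the start, on either strand, in the promoters of the 9 members that hold it, by distance in bases from the RefSeq transcription start, with the log2 difference at the right. The 4 ATF4-regulated genes are higher in the Rcor2cko library (red) and the 5 cytosolic synthetases are lower (blue).

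ATF4 binds DNA together with C/EBP proteins at a composite element whose core is TGATGNAA, with N any base. RefSeq promoters (GRCm38.p6, 250 bases before to 50 after the start) were at hand for 38 of the 47 members and were searched on both strands. The core was found in 9 of the 38 (23.7%), in 4.51% of 27025 genes with a promoter and in 2.53% of the 8374 of them that reached 1 FPKM. By set it was found in 5 of 13 cytosolic synthetases, 0 of 14 mitochondrial synthetases and 4 of 11 ATF4-regulated genes. The cyclic AMP response element TGACGTCA, which related factors bind and which no match of the core can equal, was in 0 of the 38, in 2.03% of the 27025 and in 3.92% of the 8374 genes. A match is a run of letters and not a measured binding site, and since the ATF4-regulated genes are listed as known targets, their count is no independent finding. The 5 cytosolic synthetases with the core were all among those linked to ATF4 (5 of 8 with a promoter, beside 0 of 5 others). Their count is therefore no independent finding either.

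The upstream 250 bases are shown for the 3 ATF4-regulated genes with the core before the start and a higher value in the Rcor2cko library, with the match in capitals and each sequence written 5′ to 3′ on the strand of its gene. They are at chr6:7693210-7693459 (minus strand) for Asns, chr2:119350992-119351241 (plus strand) for Chac1 and chr3:50443614-50443863 (minus strand) for Slc7a11.
Asns: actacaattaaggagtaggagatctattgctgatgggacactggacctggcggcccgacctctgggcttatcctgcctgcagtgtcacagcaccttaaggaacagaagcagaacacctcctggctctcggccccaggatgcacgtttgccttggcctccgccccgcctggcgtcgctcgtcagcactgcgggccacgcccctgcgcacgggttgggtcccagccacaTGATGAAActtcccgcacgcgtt
Chac1: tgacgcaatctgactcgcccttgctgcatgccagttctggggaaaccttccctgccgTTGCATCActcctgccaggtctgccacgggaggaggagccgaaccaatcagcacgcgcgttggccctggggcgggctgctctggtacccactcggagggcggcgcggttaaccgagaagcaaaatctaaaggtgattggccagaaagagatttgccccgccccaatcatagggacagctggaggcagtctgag
Slc7a11: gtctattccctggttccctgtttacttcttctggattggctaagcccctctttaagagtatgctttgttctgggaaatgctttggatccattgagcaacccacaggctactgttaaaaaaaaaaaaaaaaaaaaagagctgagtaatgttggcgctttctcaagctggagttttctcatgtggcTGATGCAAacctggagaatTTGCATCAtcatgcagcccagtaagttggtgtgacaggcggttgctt
In Asns the core began 23 bases before the start on the gene's own strand. Slc7a11 held it on both strands, with an unmatched run of letters between the copies, and Chac1 held it on the opposite strand.

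Windows of 30 bases around the core are shown for Trib3 and the 5 cytosolic synthetases, again on the strand of each gene. Each window holds the match nearest the start, and all lie within 41 bases before to 33 after it.
Aars: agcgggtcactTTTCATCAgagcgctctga
Gars: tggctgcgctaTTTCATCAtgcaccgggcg
Iars: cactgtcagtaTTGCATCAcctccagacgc
Tars: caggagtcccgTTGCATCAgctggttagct
Yars: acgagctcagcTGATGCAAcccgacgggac
Trib3: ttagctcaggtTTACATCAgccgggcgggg
Aars, Gars, Iars and Tars read the core on the opposite strand, and Yars reads it on its own. All 5 were lower in the Rcor2cko library, with a median log2 difference of −0.13. The cytosolic synthetases with a promoter at hand but no core were close to this, with 6 lower, 2 higher and a median of −0.12. The 4 ATF4-regulated genes with the core, Asns, Chac1, Trib3 and Slc7a11, were all higher. The 7 ATF4-regulated genes without the core were all lower, with a median of −0.04. Among them, Ddit3, Phgdh and Mthfd2 were above 0 under median, total or upper-quartile scaling. Slc3a2 was above 0 only when its larger Rcor2fl/fl row alone was set against the whole-gene Rcor2cko value. Presence of the core in the promoter therefore did not go with 1 direction of difference across the sets, and Trib3 and Slc7a11, with 2 to 50 fragments, make up part of the ATF4-regulated count.

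Further genes of the pathway were taken from lists, which like the members were chosen with earlier results of these data known. Of 14 other integrated stress response targets that reached 1 FPKM, 3 were over 1.2-fold higher in Rcor2cko and 5 were lower by as much, beside 10.4% and 9.98% of all genes, and the median log2 difference was −0.15. Past 1.5-fold there were Jdp2, a bZIP repressor, with 0.733 and 1.197 FPKM, which reached 1 FPKM in the Rcor2cko library alone, and Cth, an enzyme of cysteine synthesis, with 1.72 and 1.03 FPKM. Jdp2 was thus higher and Cth lower, and the counting interval of Jdp2, −0.08 to 1.55, held 0 while that of Cth, −1.36 to −0.12, did not. The 11 amino acid synthesis enzymes had a median of −0.03, with 5 higher and 6 lower. The 9 amino acid transporters had a median of −0.16, with 2 higher and 7 lower, beside 42.4% and 57.6% of all genes.

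Upstream of ATF4, the 13 eIF2 kinases, phosphatases and their partners had a median log2 difference of −0.07, with 3 higher and 10 lower. A list of 15 genes held chaperones of the endoplasmic reticulum and stress factors such as Xbp1, Atf6 and Ern1. Of these, 5 were higher and 10 were lower, with a median of −0.07. The 8 mitochondrial chaperones and proteases had a median of −0.07, with 1 higher and 7 lower. None of the genes in these 3 lists passed 1.5-fold in either direction. The medians of the lists thus lay between −0.16 and −0.03. For all genes that reached 1 FPKM the median was −0.03, and 57.6% of them were lower.

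**Figure D5:**
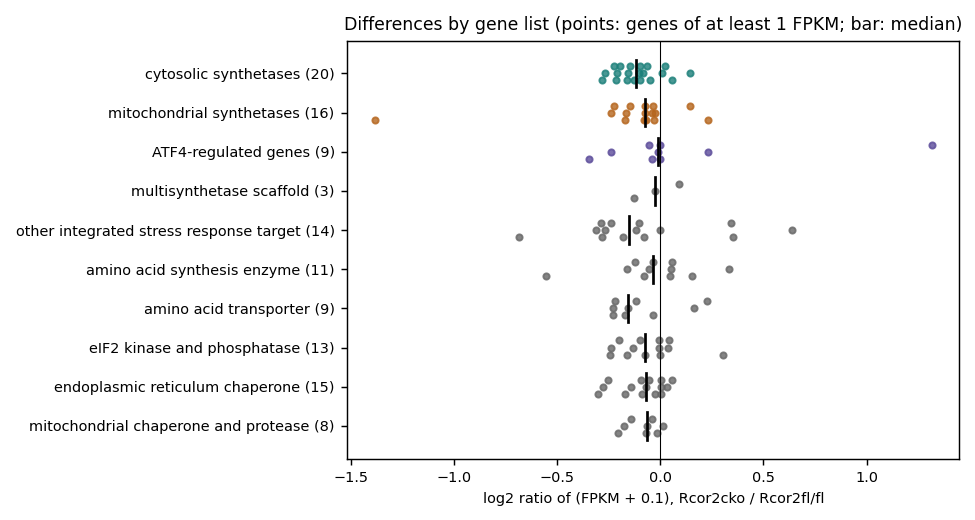
Log2 ratio of FPKM plus 0.1 for each gene of at least 1 FPKM in the 3 member sets (colour) and the 7 further lists (grey), with the number of genes in parentheses and a bar at the median. All list medians lie between −0.16 and −0.01, and the widest spreads are those of the mitochondrial synthetases, the ATF4-regulated genes and the other stress response targets.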

How the data were processed

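The authors dissected the VZ-SVZ, isolated RNA with RNeasy columns and made stranded mRNA libraries. Their methods give TopHat v2.0.3 with mm9 and Cuffdiff, while the submitters' processing notes give TopHat 1.3.3 and Cufflinks 1.2.0. The deposited values were FPKM with 95% intervals, per gene for Rcor2cko and per transcript for Rcor2fl/fl, whose rows were summed per gene. Members and lists were chosen with earlier results of these data known. All members are named; of other lists, genes past 1.5-fold. Genes of at least 1 FPKM in a library entered counts and medians (pseudocount 0.1), except in the counts of choroid plexus markers and of promoter matches. Fragments were recovered for genes with 1 transcript row of at least 800 nt, and 99.3% and 99.4% of values up to 100 fragments were within 0.1 of a whole number. Intervals were tested on simulated data. Shared sequence was sought as exact runs of 31 nt in NCBIM37. Python 3.11.15, numpy 2.4.6, pandas 2.3.3, scipy 1.17.1 and matplotlib 3.10.9 were used. Samples of E15.5 were not analysed here, and certain genes and sequences are not reported here.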

Additional observations from a re-analysis of the deposited data

How the results depend on the processing

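With 1 library per genotype, replicate error is unknown and counting error is the lower limit of the true error. The values were recomputed under 15 alternatives, of which 1, leaving out Lars2, was chosen after seeing the data. The medians of the 3 sets were recomputed under 13 of these (the other 2 only change which members are called). They moved by less than the median half-width of a single gene's counting interval. This was 0.11, 0.23 and 0.17 for the cytosolic, mitochondrial and ATF4-regulated sets. These limits are near or above the size of the medians, so staying within them does not show that the medians are stable. The cytosolic and mitochondrial medians stayed negative under those 13, while that of the ATF4-regulated genes was 0.01 to 0.02 under median, total or upper-quartile scaling. The members more than 1.2-fold lower were 4 in the report, 2 under median, total, upper-quartile or quantile scaling, and 1 with non-overlapping FPKM intervals. The members more than 1.2-fold higher were 1 in the report, 3 without a filter or with the highest transcript row per gene, and 0 with at least 5 FPKM in a library or 1 FPKM in both. Past 1.5-fold higher there were 1, then 3 without a filter, 2 with the highest row and 0 under either stricter filter. Past 1.5-fold lower there were 1, and 0 without Lars2. Of 45 members, 37 kept their sign throughout and 8 (Ddit3, Fars2, Kars, Mthfd2, Pars2, Phgdh, Slc3a2, Tars2) did not. Fars2, Kars, Slc3a2 and Tars2 changed sign only with the highest row per gene. That setting took 1 Rcor2fl/fl row against the whole-gene Rcor2cko value, so it could raise a difference but not lower it. With it, the log2 differences were 0.75 for Nars, 0.58 for Pars2, 0.20 for Kars, 0.19 for Slc3a2 and −0.04 for Mars, and 3 members were past 1.2-fold lower. No paired analysis was possible because each genotype has 1 library.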
